A study of Arabidopsis thaliana with 6 samples.

Results

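Chloroplast formation in plants is steered by a small set of nuclear regulators, of which 10 were followed here at the transcript level in developing Arabidopsis thaliana seeds with and without chlorophyll. The set was chosen by gene identifier and holds the GOLDEN2-LIKE genes GLK1 and GLK2, the GATA factor genes GNC and GNL, the bZIP genes HY5 and HYH, the bHLH genes PIF1 and PIF3, the plastid signalling gene GUN1 and ABI4, so 10 of the 32678 gene models in the count table. The labels name a mutant allele of the gene for chlorophyll synthase, which completes chlorophyll by adding its phytol tail. The seeds were sorted by colour after removal from the siliques. Yellow, non-green seeds are labelled with the genotype Atchlsyn1-1 alone, and green seeds with Atchlsyn1-1/CHLSYN, so the mutant allele is named for both kinds of seed; the titles also call both kinds photosynthetic. Each group had 3 libraries of total RNA. The plants had days of 16 h light (120 µE m-2 s-1) and 8 h dark at 22 °C. Seed age, plant numbers and the kind of lesion were not stated. No label ties replicates to separate plants, so p-values describe the spread between libraries, which may be technical.

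GLK1 and GLK2 are a pair of transcription factors that switch on genes for light harvesting and chlorophyll synthesis, and loss of GLK2 alone is known to give pale siliques. GNC and GNL, zinc-finger factors induced by cytokinin, also promote greening, and HY5 with its homologue HYH activates light-responsive genes once it escapes breakdown by the COP1 ubiquitin ligase. PIF1 and PIF3 act in the opposite sense, holding back greening in the dark until active phytochrome removes them. GUN1 is a plastid protein through which damaged plastids lower the transcription of nuclear photosynthesis genes (retrograde signalling), and ABI4, an AP2 factor named for its role in abscisic acid response of seeds, has been placed downstream of GUN1, a placement that is debated. Much of the control of these proteins is after transcription, which read counts do not measure.

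Total counts ran from 16438639 to 16745514 per library. The chlorophyll synthase gene itself (CHLG, AT3G51820) had 11, 6 and 9 counts in non-green libraries, against 46, 50 and 65 in green ones. Its log2 fold change was -2.69 with an SE of 0.36 (edgeR adjusted p = 1.32e-09), in the direction of the labels. CHLG passed the filter on low counts through the green group, with 1 of 3 non-green libraries at the minimum. The seed identity of the samples was checked with 6 seed markers, all of them called, 3 higher and 3 lower; the cruciferin gene CRU3 had 2506206 to 2554735 counts in non-green and 2750933 to 2831341 in green libraries. Markers of other tissues were present as well. Seed coat markers summed to 746 to 754 CPM (counts scaled to a common library size) in non-green libraries and to 1034 to 1085 in green ones. TT10 alone gave 529 to 538 CPM of this in non-green and 708 to 754 CPM in green libraries. Of the 11 markers tested, 6 were lower, 5 did not pass, and none of the 13 was at 0 in all libraries. Endosperm markers apart from the very abundant EPR1 summed to 4.32 to 4.96 CPM in non-green and 7.40 to 11.0 CPM in green libraries. Of the 3 tested, 2 were lower (MEA and ALE1), and PHE1 was at 0 throughout. ALE1 passed the filter on low counts through the green group, with 1 of 3 non-green libraries at the minimum. With EPR1, which was not called, the sums overlapped, at 13382 to 14873 CPM in non-green and 12615 to 14578 CPM in green libraries. Silique wall markers summed to 89.8 to 106 CPM in non-green and 86.7 to 93.0 CPM in green libraries. Of 6 tested, 2 were higher (FIL and YAB3, neither of them called with DESeq2 or without non-green replicate 3), and FUL was at 0 throughout. The share called was 54.5% for seed coat markers, 50% for endosperm markers with EPR1 and 33.3% for silique wall markers. Of all genes tested, 26.6% were called, 14.2% higher and 12.5% lower, so the silique wall share lies near that of all genes. How reads were assigned to genes is not stated, so a count of 0 is not read as absence of the transcript, for FUL and PHE1 as for the genes at 0 named further on. In whole seeds, fewer cells of a type and less RNA per cell cannot be told apart, and the part of tissue shares in the results given here was not tested.

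Of the 10 regulators, HYH and GNC were higher and GUN1 was lower in non-green seeds, and the other 7 did not pass. A gene was called at an adjusted p under 0.05 from edgeR's quasi-likelihood test fitted to all genes. Against the 3 of 10 regulators called, 26.6% of the 17239 genes tested were called in these libraries, 14.2% higher and 12.5% lower in non-green seeds, so the share among the regulators lies near that of all genes. The groups did not overlap for 4 regulators (HYH, GNC, GUN1 and GLK1), where 37.3% of all tested genes had groups that did not overlap. All 10 passed the filter on low counts, but GLK1 and GNC did so through the non-green group, where all 3 libraries reached the minimum, while 1 of 3 green libraries did. The median log2 fold change of the 10 was 0.17, against 0.00 for all genes tested. With scaling by total counts alone, calls over all genes split into 3266 higher and 1364 lower (70.5% higher) in place of 2444 and 2149 (53.2% higher), and 2 of the 10 regulators were called.

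**Figure D1:**
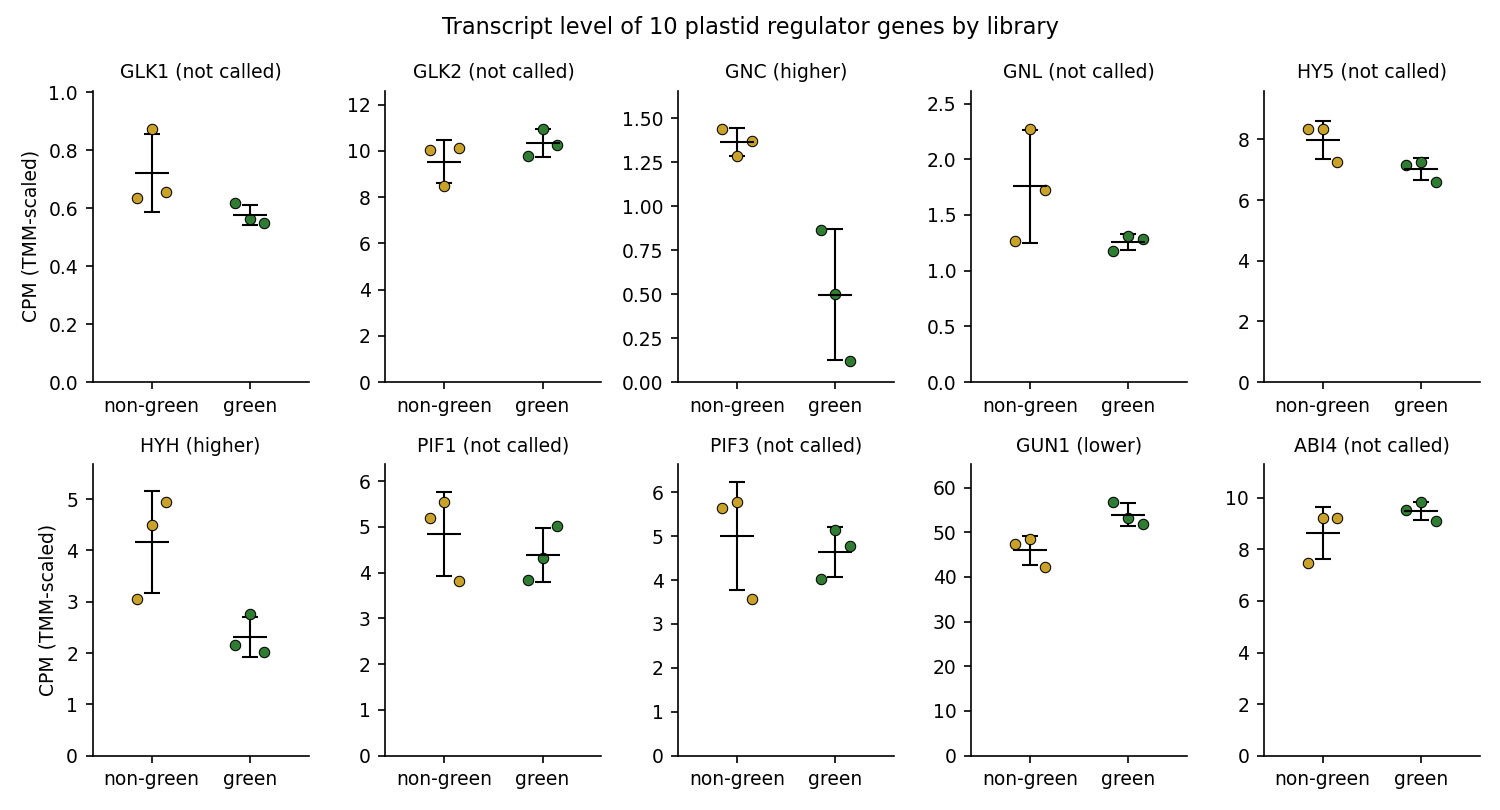
Transcript level of each of the 10 regulators in CPM (vertical axis, TMM-scaled, starting at 0 with its own range per gene) in 3 non-green and 3 green libraries. Points are libraries, and bars give the mean and SD. HYH and GNC lie higher and GUN1 lies lower in non-green libraries without overlap; for GLK2, GNL, HY5, PIF1, PIF3 and ABI4 the groups overlap.

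The level per length set the 10 genes in a wide order. RPKM values, as deposited by the authors, put GUN1 on top with 13.7 to 18.0 over the 6 libraries, above every other regulator without overlap and above 75.5% of tested genes by its mean. ABI4 (7.87 to 9.62 RPKM), HY5 (7.16 to 9.60 RPKM) and GLK2 (6.21 to 7.48 RPKM) followed, and neighbours in this order overlapped. HYH ranged from 2.95 to 7.46 RPKM and exceeded GLK2 in 2 of 6 libraries, both of them non-green. PIF3 and PIF1 were at nearly the same level, with 2.42 ± 0.48 and 2.39 ± 0.42 RPKM (SD over 6 libraries). GNL (0.886 to 1.80 RPKM), GNC (0.071 to 0.89 RPKM) and GLK1 (0.322 to 0.539 RPKM) closed the order, and the mean of GLK1 exceeded only 1.91% of tested genes.

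**Figure D2:**
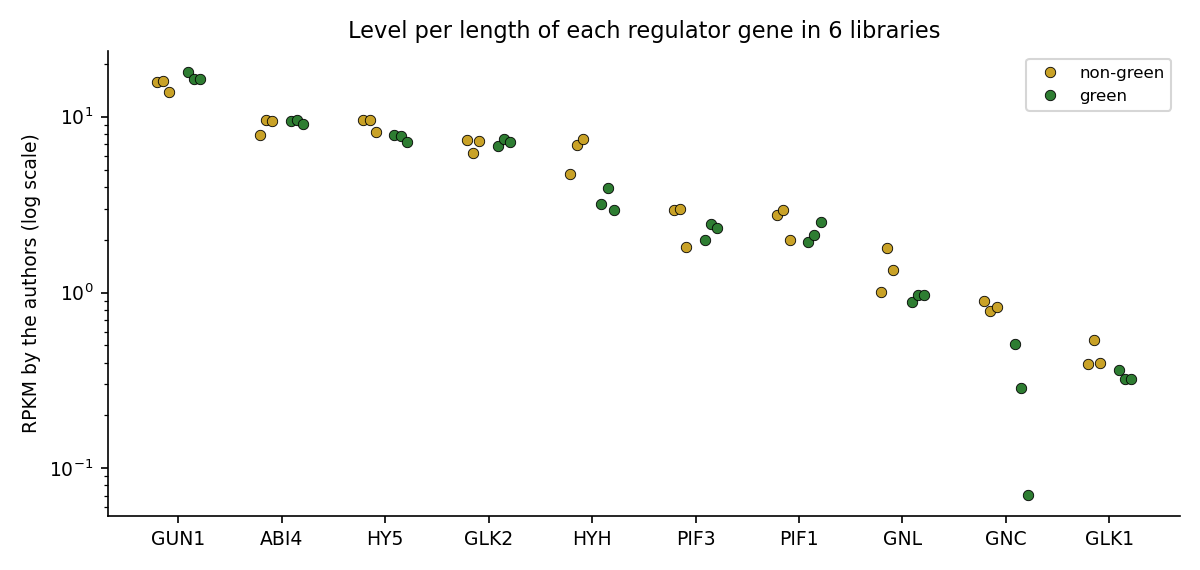
Level per length of the 10 regulators as the authors' RPKM on a log scale (vertical axis), in descending order of the mean, with 1 point per library for non-green and green seeds. GUN1 stands above all others and GLK1 has the lowest mean; the green points of GNC run from 0.071 to 0.508 RPKM.

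Of the GOLDEN2-LIKE pair, which activates antenna and chlorophyll synthesis genes, GLK2 carried nearly all counts. GLK2 (AT5G44190, chromosome 5, 17798262 to 17800926, plus strand, TAIR10.1) had 174, 145 and 170 counts in non-green libraries, against 158, 175 and 168 in green ones. The groups overlapped, with non-green replicate 2 the lowest library, and gave a log2 fold change of -0.12 ± 0.13 (SE) and a 95% interval of -0.37 to 0.14 (edgeR adjusted p = 0.576). GLK1 (AT2G20570, chromosome 2, 8855302 to 8857758, plus strand) had 11, 15 and 11 counts in non-green libraries, against 10, 9 and 9 in green ones. At so few counts its interval was wide, -0.65 to 1.29 around a log2 fold change of 0.32, and no difference was detectable (edgeR adjusted p = 0.698). By mean RPKM, GLK2 stood 15.7-fold above GLK1 in non-green seeds and 21.3-fold above it in green seeds.

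Antenna genes on the list of GLK targets were lower in non-green seeds. Of 18 target genes of chlorophyll synthesis and light harvesting, 11 were lower, 1 was higher and 6 were not called. The share called was 66.7%, beside 26.6% of all genes tested, where 12.5% were lower and 14.2% higher. The 11 were all 10 antenna genes and PORB, for a protochlorophyllide reductase (named after its value was seen), while HEMA1, GUN4, CHLM, CRD1, CAO and PORC were not called. The list's median log2 fold change was -0.24, beside 0.00 for all genes tested. The antenna gene LHCA1 averaged 49.8 ± 0.356 CPM in non-green and 76.0 ± 1.25 CPM in green seeds (SD, n = 3) (log2 fold change -0.61 ± 0.05, edgeR adjusted p = 2.32e-16). LHCA3 and LHCB4.1, antenna genes of photosystem I and photosystem II, had log2 fold changes of -0.42 ± 0.05 and -0.36 ± 0.04. The exception was CHLH, for the large magnesium chelatase subunit, at 0.35 ± 0.07 (edgeR adjusted p = 0.000107). Of the 11 seed coat markers tested, 6 were lower in non-green seeds too, as given above, and what part that had in these values was not tested.

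The GATA pair, whose members promote greening, was at low counts in both groups. GNC (AT5G56860, chromosome 5, 22989216 to 22991530, minus strand) had 25, 22 and 23 counts in non-green libraries, against 14, 8 and 2 in green ones. All 3 non-green libraries lay above the highest green one; the green libraries differed widely among themselves. The mean was 1.36 ± 0.0786 CPM in non-green and 0.496 ± 0.371 CPM in green seeds (SD, n = 3), a log2 fold change of 1.45 ± 0.46 with a 95% interval of 0.53 to 2.36 (edgeR adjusted p = 0.0116). The call rested on green replicate 3, which had 2 counts; without it the log2 fold change was 0.99 (edgeR adjusted p = 0.137). In the authors' deposited table GNC is listed with a log2 fold change of 0.69 and an adjusted p of 0.0251. The deposited value of CHLG, -1.70, is also smaller in size than that of edgeR (-2.69), while GUN1 has -0.23 in both. The settings of the deposited comparison were not stated, so its fold changes may be on another measure, which was not tested. GNL (AT4G26150, chromosome 4, 13253084 to 13255106, plus strand) had 22, 39 and 29 counts in non-green libraries, against 19, 21 and 21 in green ones. Non-green replicate 1 lay within the green range in CPM, though above it in RPKM (1.01 against at most 0.967), and GNL did not pass (0.48 ± 0.35, 95% interval -0.22 to 1.18, edgeR adjusted p = 0.350). Of 6 other GATA genes of related type, 3 were tested and 0 were called by edgeR or DESeq2, with 0 at an unadjusted p under 0.05. GATA17 (2, 4 and 9 counts in non-green, 10, 13 and 10 in green libraries) and HAN (6, 8 and 2 against 12, 11 and 9) were below the filter. Their groups did not overlap in CPM, with non-green libraries lower. GATA23, also untested, was at 0 throughout.

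HYH was higher in non-green seeds, while its partner HY5 was not called. HYH (AT3G17609, chromosome 3, 6023844 to 6024710, plus strand) had 53, 77 and 83 counts in non-green libraries, against 35, 44 and 33 in green ones. Every non-green library exceeded every green one, with replicate 1 the closest to the green range. The means were 4.16 ± 0.987 CPM in non-green and 2.31 ± 0.392 CPM in green seeds (SD, n = 3), 1.80-fold, a log2 fold change of 0.85 ± 0.24 with a 95% interval of 0.37 to 1.32 (edgeR adjusted p = 0.00408). Without non-green replicate 3 it was 0.70 and lost its call narrowly (edgeR adjusted p = 0.0509). In the authors' deposited table HYH has a log2 fold change of 0.66 and an adjusted p of 0.00809. HY5 (AT5G11260, chromosome 5, 3593335 to 3595073, minus strand) had 145, 143 and 122 counts in non-green libraries, against 116, 116 and 108 in green ones. Non-green replicate 3 just touched the green range in CPM. In RPKM the groups did not overlap (8.14 to 9.60 in non-green, 7.16 to 7.82 in green). The log2 fold change was 0.19 ± 0.15 with a 95% interval of -0.10 to 0.48 (edgeR adjusted p = 0.388), an interval that reaches into that of HYH.

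To show what lies in front of the regulators that were called, and of HY5 as the partner of HYH, the bases just before their annotated starts are given 5′ to 3′ on the gene's strand, from the RefSeq assembly TAIR10.1. Capitals mark ACGT, the core bound by bZIP factors such as HY5. The windows are 250 bases long, at chr3:6023594-6023843 (plus) for HYH, chr5:22991531-22991780 (minus) for GNC and chr2:13390855-13391104 (minus) for GUN1; for HY5 the 200 bases of chr5:3595074-3595273 (minus) that lie outside the next annotated gene are printed.
HYH: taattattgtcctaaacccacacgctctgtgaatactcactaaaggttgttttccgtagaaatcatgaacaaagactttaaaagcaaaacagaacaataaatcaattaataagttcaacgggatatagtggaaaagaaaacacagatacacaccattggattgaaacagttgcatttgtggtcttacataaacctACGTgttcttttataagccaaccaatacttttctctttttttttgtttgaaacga
HY5: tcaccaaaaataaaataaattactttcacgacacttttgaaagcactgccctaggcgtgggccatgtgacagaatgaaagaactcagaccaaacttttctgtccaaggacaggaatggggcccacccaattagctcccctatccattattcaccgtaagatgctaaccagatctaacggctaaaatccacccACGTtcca
GNC: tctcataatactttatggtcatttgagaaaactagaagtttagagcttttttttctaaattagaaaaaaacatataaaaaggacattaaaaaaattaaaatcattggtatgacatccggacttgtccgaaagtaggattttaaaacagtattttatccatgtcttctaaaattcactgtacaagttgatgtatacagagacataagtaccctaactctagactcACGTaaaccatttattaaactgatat
GUN1: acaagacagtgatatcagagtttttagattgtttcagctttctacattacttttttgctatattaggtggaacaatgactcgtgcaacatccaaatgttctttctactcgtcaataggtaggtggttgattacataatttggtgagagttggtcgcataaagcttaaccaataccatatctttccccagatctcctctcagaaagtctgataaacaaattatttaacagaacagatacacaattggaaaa
The ACGT core begins 55 bases before the start in HYH, 8 in HY5 and 26 in GNC, and GUN1 has none in its window. Among all 10 regulators 4 have an ACGT in the 250 bases before the start (GLK1 is the other), beside 44.1% of 27443 windows of protein-coding genes on both strands. The full G-box CACGTG, which contains ACGT and is also the site of PIF proteins, occurs in 0 of the 10 and in 6.49% of all windows. GATAAG, a sequence that GATA factors bind, occurs in 2 of 10 (GLK1 and PIF3) and in 12.3% of all windows, and CCAATC, a sequence reported upstream of GLK targets, in 0 of 10 and in 10.2%. These matches describe letters in a short window and show no binding.

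Most genes on the list of HY5 targets were higher in non-green seeds. Of 10 listed, 8 were tested, and 7 were higher and 1 was lower. Of all genes tested, 26.6% were called, 14.2% higher and 12.5% lower. The list's median log2 fold change was 1.35, beside 0.00 for all genes tested. F3H and MYB75 were listed at 0 counts in all libraries. For F3H, an enzyme of the flavonoid pathway that CHS opens, that 0 stands beside many counts of CHS and FLS1, and reads lost in counting were not tested for. ELIP1, a light-stress protein of the thylakoid, averaged 142 ± 8.16 CPM in non-green and 8.26 ± 1.2 CPM in green seeds (SD, n = 3; log2 fold change 4.1 ± 0.07, edgeR adjusted p = 2.32e-63). FLS1, the flavonol synthase gene, averaged 96.5 ± 2.97 CPM in non-green and 29.4 ± 1.92 CPM in green seeds, a log2 fold change of 1.72 ± 0.06, and the chalcone synthase gene CHS had 1.27 ± 0.04. The exception was the antenna gene LHCB1.3 at -0.37 ± 0.04, whose counts can be exchanged with near-identical LHCB1 copies. These genes have other regulators too, and the list was drawn up with results of these libraries known.

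Genes for B-box proteins, some of which bind HY5 and raise or lower its activity, were called in 2 of 8 tested cases, both higher. That share of 25% lies near the 26.6% of all genes tested. BBX25 (known as STH) had 44, 33 and 59 counts in non-green libraries, against 21, 11 and 6 in green ones (log2 fold change 1.75 ± 0.36, edgeR adjusted p = 5.97e-05). BBX32 had 33, 25 and 26 counts in non-green libraries, against 12, 8 and 16 in green ones (1.13 ± 0.40, edgeR adjusted p = 0.0234), and was not called when non-green replicate 1 (adjusted p = 0.114), green replicate 1 (0.0659) or green replicate 2 (0.132) was left out. Both of these factors are described as repressors of light responses. For both genes all 3 non-green libraries reached the minimum of the filter on low counts, while 2 of 3 green libraries did. A list of 15 genes held photoreceptors, repressors of light responses and the factors FHY3 and FAR1. Of these, 13 were tested, 2 were higher and 1 was lower (23.1% called, beside 26.6% of all genes tested). COP1, the ubiquitin ligase, stood at a log2 fold change of 0.28 ± 0.08 (adjusted p = 0.00842 by edgeR, and 0.0603 without non-green replicate 3), and its partner SPA3 one of 0.59 ± 0.16 (edgeR adjusted p = 0.00335). The ultraviolet-B receptor gene UVR8 had -0.18 ± 0.05 (edgeR adjusted p = 0.00277), which was not called with scaling by total counts (-0.10).

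PIF1 and PIF3, the repressors of greening in darkness, were not called. PIF1 (AT2G20180, chromosome 2, 8704024 to 8707009, minus strand) had 90, 95 and 64 counts in non-green libraries, against 62, 69 and 82 in green ones, a log2 fold change of 0.14 ± 0.19 with a 95% interval of -0.24 to 0.53 (edgeR adjusted p = 0.653). PIF3 (AT1G09530, chromosome 1, 3075768 to 3079654, plus strand) had 98, 99 and 60 counts in non-green libraries, against 65, 82 and 78 in green ones, a log2 fold change of 0.11 ± 0.19 with a 95% interval of -0.27 to 0.49 (edgeR adjusted p = 0.739). In both genes non-green replicate 3 was the lowest of the 6 libraries on the CPM scale, and non-green replicates 1 and 2 were the highest. Without non-green replicate 2 the log2 fold change of PIF3 was -0.0076.

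Other members of the PIF family were lower where they were called. Among 8 genes, 5 were tested and 2 were lower (40% called, beside 26.6% of all genes tested). PIF7 had 74, 53 and 68 counts in non-green libraries, against 91, 108 and 85 in green ones (log2 fold change -0.62 ± 0.19, edgeR adjusted p = 0.00831). This call was lost without non-green replicate 2 (0.0710) or green replicate 2 (0.0772). HFR1, a bHLH protein that keeps PIFs from DNA, had 31, 59 and 37 counts in non-green libraries, against 53, 57 and 77 in green ones, with overlapping groups. Its log2 fold change of -0.64 ± 0.24 (edgeR adjusted p = 0.0427) was not called with DESeq2 (adjusted p = 0.101), with scaling by total counts (0.0770), or without non-green replicate 1 (0.242) or 3 (0.124) or green replicate 3 (0.258). Of 6 genes linked to PIF1 and PIF3 as targets or partners, 1 was higher (16.7%, beside 26.6% of all genes called) and 5 did not pass. That gene was SOM, which PIF1 activates to block germination, with 148 ± 2.58 CPM in non-green and 129 ± 6.04 CPM in green seeds (SD, n = 3; log2 fold change 0.20 ± 0.04, edgeR adjusted p = 0.000136).

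GUN1 was lower in non-green seeds by a small margin. The gene (AT2G31400, chromosome 2, 13386954 to 13390854, minus strand) had 821, 829 and 710 counts in non-green libraries, against 919, 848 and 847 in green ones. No non-green library reached the lowest green one on either scale. The means were 46.0 ± 3.25 CPM in non-green and 53.9 ± 2.57 CPM in green seeds (SD, n = 3), a fall of 14.6%, with a log2 fold change of -0.23 ± 0.06 and a 95% interval of -0.35 to -0.11 (edgeR adjusted p = 0.00242). With scaling by total counts alone the log2 fold change was -0.15 and was not called (edgeR adjusted p = 0.0644); the call held without each library in turn, most narrowly without non-green replicate 3 (adjusted p = 0.0496). In the authors' deposited table GUN1 stands at -0.23 with an adjusted p of 0.00405.

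The other genes of plastid-to-nucleus signalling were called at a share near that of all genes. Of 19 tested, 2 were higher, 2 were lower and 15 did not pass (median log2 fold change -0.05). The share called, 21.1%, lies near the 26.6% of all genes tested. Of the tetrapyrrole genes whose mutants share the gun phenotype, HY1 (GUN2), a haem oxygenase gene, averaged 82.1 ± 3.91 CPM in non-green and 97.0 ± 3.17 CPM in green seeds (SD, n = 3; log2 fold change -0.24 ± 0.05, edgeR adjusted p = 4.38e-05). FC1 (GUN6), the ferrochelatase gene, had 0.35 ± 0.08 (edgeR adjusted p = 0.00015), and CHLH (GUN5) is given above with the GLK targets. The other gene called lower was the exoribonuclease gene XRN3, at -0.15 (edgeR adjusted p = 0.029), named after its value was seen. It was not called with DESeq2 (adjusted p = 0.0630), or in edgeR with scaling by total counts (0.358) or without non-green replicate 2 (0.235), green replicate 1 (0.0774) or green replicate 2 (0.0683). Among 9 genes known to respond to singlet oxygen or plastid stress, 5 were tested and 4 were higher (80%, beside 26.6% of all genes called). The AAA-ATPase gene AT3G28580 was at 0 in all libraries, and SIB1, ERF5 and APX2 did not pass the filter on low counts. WRKY33 averaged 17.2 ± 2.14 CPM in non-green and 3.66 ± 0.86 CPM in green seeds (SD, n = 3; log2 fold change 2.23 ± 0.14), and the zinc finger genes ZAT12 and ZAT10 had 1.09 ± 0.07 and 1.00 ± 0.05. The fourth was BAP1, named after its value was seen, with 92, 89 and 86 counts in non-green libraries, against 43, 36 and 27 in green ones.

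ABI4 was not called. The gene (AT2G40220, chromosome 2, 16796247 to 16797585, minus strand) had 130, 158 and 155 counts in non-green libraries, against 154, 157 and 149 in green ones, and the groups overlapped. Its log2 fold change was -0.13 ± 0.13 with a 95% interval of -0.40 to 0.13 (edgeR adjusted p = 0.525). Of 11 genes linked to ABI4 in abscisic acid and sugar response, 4 were higher, 1 was lower and 6 were not called (median log2 fold change 0.04). The share called was 45.5%, beside 26.6% of all genes tested. CYP707A1, for an abscisic acid hydroxylase that ABI4 represses, averaged 34.5 ± 2.67 CPM in non-green and 11.8 ± 0.766 CPM in green seeds (SD, n = 3; log2 fold change 1.55 ± 0.09, edgeR adjusted p = 4.61e-26). SBE2.2, a starch branching enzyme gene that ABI4 activates, had 0.93 ± 0.08, and ABI5, which acts beside ABI4 in seeds, 0.45 ± 0.06. The fourth was CYP707A2, named after its value was seen, at 0.39 (edgeR adjusted p = 0.0216). It was not called with DESeq2 (adjusted p = 0.0642), or in edgeR without non-green replicate 1 (0.0648) or 3 (0.141) or green replicate 1 (0.0980). NCED6, a gene of abscisic acid synthesis that ABI4 activates, had -0.24 ± 0.08 (edgeR adjusted p = 0.0104) and lost its call with scaling by total counts (0.108) or without green replicate 3 (0.106).

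**Figure D3:**
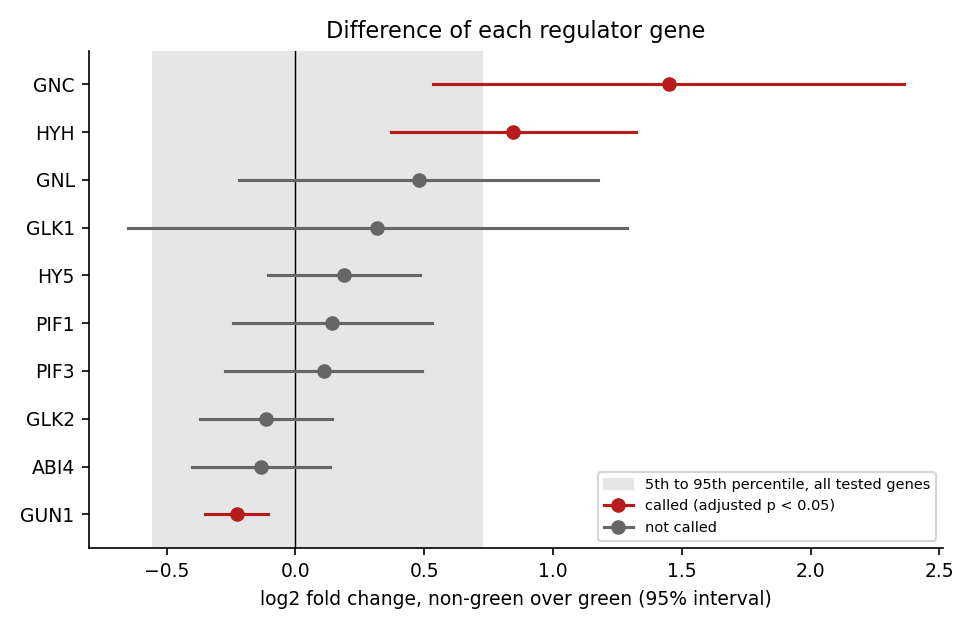
Log2 fold change of each regulator, non-green over green (horizontal axis), as a point with its 95% interval; red marks called genes, grey genes that were not called, and the shaded band the 5th to 95th percentile of all 17239 tested genes (-0.55 to 0.72). GNC at 1.45 and HYH at 0.85 lie beyond the band, while GUN1 at -0.23 lies inside it.

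Whether the genes of a pair differed in their response was tested on the log2 ratio of their levels per length within each library. For HY5 over HYH this log2 ratio was 1.01, 0.46 and 0.12 in non-green libraries, against 1.28, 0.96 and 1.26 in green ones. HY5 thus stood 1.43-fold above HYH by mean RPKM in non-green and 2.25-fold above it in green seeds, but the groups overlapped through non-green replicate 1, and the difference of -0.64 was not past the spread (two-sided exact permutation p = 0.2; 3 against 3 allows no p below 0.1). For GNC over GNL the log2 ratio was -0.18, -1.17 and -0.69 in non-green libraries, against -0.79, -1.70 and -3.47 in green ones, a difference of 1.3 (exact permutation p = 0.2). GLK1 over GLK2 differed by 0.41 (exact permutation p = 0.2) and PIF1 over PIF3 by 0.05 (exact permutation p = 0.7). Adjusted over the 4 pairs, the p-values were 0.267 for the first 3 pairs and 0.7 for PIF1 and PIF3 (exact permutation). Since this test cannot pass 0.05 with 3 libraries per group, it does not decide whether partners differ in their response, and the ratio of GNC to GNL also rests on 2 to 14 counts of GNC in green libraries.

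**Figure D4:**
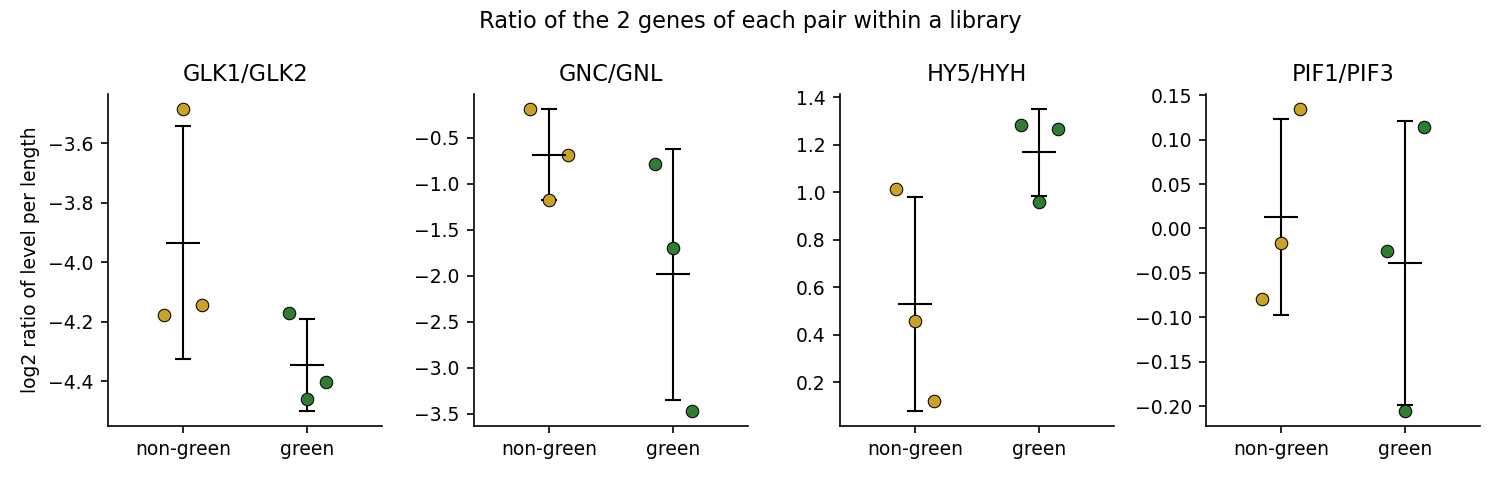
Log2 ratio of level per length between the genes of 4 pairs (vertical axis, with its own range per pair and not starting at 0) in 3 non-green and 3 green libraries; points are libraries and bars the mean and SD. In each pair the groups overlap, and the mean ratio of HY5 over HYH is 0.53 in non-green and 1.17 in green seeds.

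**Figure D5:**
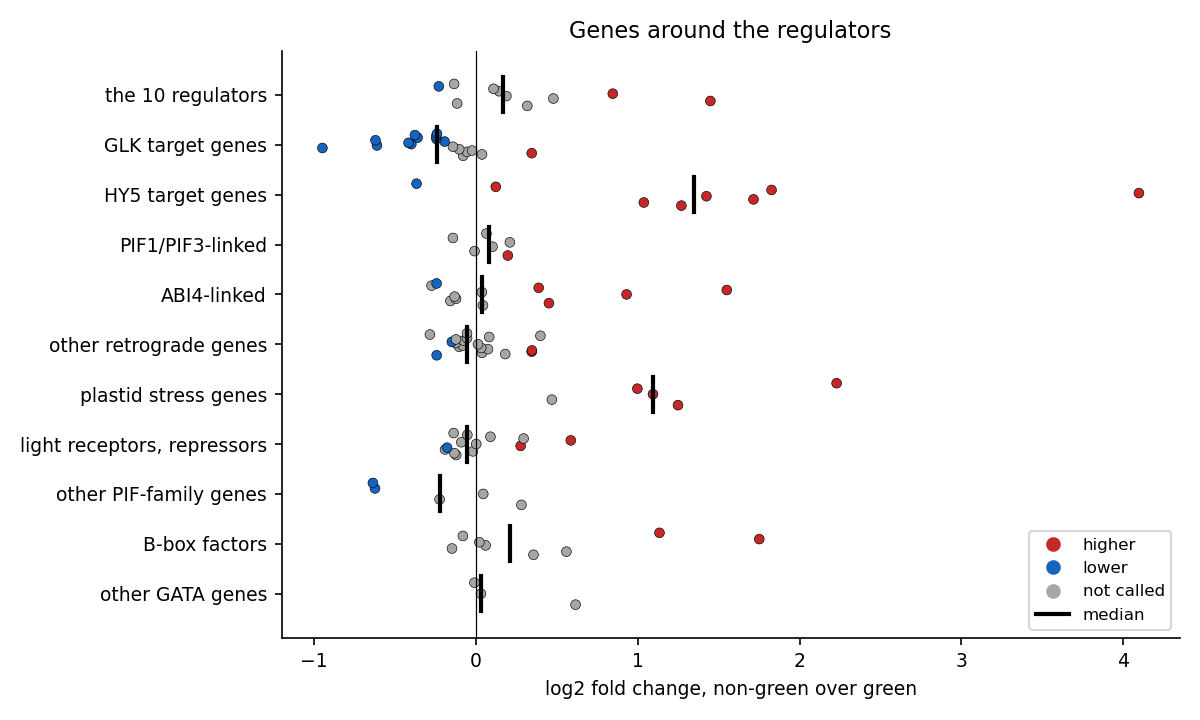
Log2 fold change, non-green over green (horizontal axis), of the 10 regulators and of 10 lists of genes around them; each point is a tested gene, red if called higher, blue if called lower and grey if not called, and black bars are medians. HY5 target genes (median 1.35) and plastid stress genes (median 1.09) lie to the right and GLK target genes (median -0.24) to the left of 0.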

How the data were processed

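Seed RNA was sequenced from 6 libraries, 3 of non-green and 3 of green seeds, grouped by sample title. Per the labels, TruSeq libraries were built on 1 µg RNA. The authors deposited counts per gene model. Bowtie 0.12.2 and TAIR10 are named in the submitters' processing notes; the counter and its strand and multiple-match settings were not stated, so overlapping or antisense genes cannot be told apart. The authors' deposited RPKM equal the counts per gene length and library total and were used for levels per length. The authors' deposited comparison lists signal (a mean over libraries), log2 fold changes with errors, a score (the test statistic) and p-values; its settings were not stated.

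Counts were tested with edgeR 4.0.16 in R 4.3.3 (filterByExpr, minimum count 10, TMM, quasi-likelihood test of group, Benjamini-Hochberg adjustment over 17239 genes, two-sided); the scripts were tested on simulated data. SE is the log2 fold change over the square root of F, and intervals are at 95%. CPM are TMM-scaled. Pair ratios used counts plus 0.5 and SciPy 1.17.1. No 2 libraries agreed within sampling noise (chi-square per degree of freedom at least 2.46). Promoter windows and coordinates come from RefSeq TAIR10.1, whose table holds 97.7% of the identifiers; the count table has no coordinates. DESeq2 1.42.0, other scalings, no filter, a replicate block and leaving out libraries were tried. Named genes are the 10 regulators, CHLG and, per list, up to 3 called genes (2 for markers) ranked by adjusted p, plus the top one that goes against the majority. The members, lists and rule were chosen with earlier results of these data known.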

Additional observations from a re-analysis of the deposited data

How the results depend on the processing

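The regulators called numbered 2 to 3 over the 11 alternatives: HYH, GNC and GUN1 each lost the call in 1 of them, as given in the report, and the other 7 were called in none. Calls over all genes numbered 3673 with DESeq2 and 3968 to 4150 without single libraries, against 4593. Scaling by total counts left 1364 lower calls in place of 2149 (median shift of all genes 0.07 on the log2 scale) and gave 2 PIF-linked and 1 endosperm gene higher (main 1 and 0), and 0 ABI4-linked, 0 light receptor or repressor, 1 retrograde and 1 other PIF-family gene lower (main 1, 1, 2 and 2). DESeq2 gave 1 retrograde and 1 other PIF-family gene lower and 0 silique wall genes higher (main 2, 2 and 2). Without single libraries the counts ran from 0 to 2 for ABI4-linked lower, 1 to 2 for retrograde lower, other PIF-family lower, B-box higher and light receptor or repressor higher, 0 to 2 for silique wall higher, and 0 to 1 for silique wall lower and endosperm higher. The pair difference of PIF1 over PIF3 turned negative without non-green replicate 3 (-0.0096) or green replicate 2 (-0.032), within a range of -0.032 to 0.13; PIF3 alone turned to -0.0076 without non-green replicate 2, within a range of -0.0076 to 0.30. Where a cause is not evident from fewer libraries, the cause was not tested. Same-numbered libraries deviated together with r of 0.0041 to 0.018, so no deviation shared by number was seen. Whether same-numbered libraries were collected or prepared together cannot be told from these values. With the replicate block 4643 genes and 3 regulators were called and 1 silique wall gene was lower (main 0). Counts of 2 to 25 for GNC and 9 to 15 for GLK1 limit what can be seen for these genes.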
